A study of Mus musculus with 6 samples.

Results

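The 10 genes described here were listed as pigmentation genes of the pigment cell, the melanocyte: Dct, Tyr, Tyrp1, Pmel, Mlana, Mitf, Sox10, Slc45a2, Oca2 and Mc1r. Not all of them are restricted to it. They were chosen by name, and every non-control probe carrying one of these names on the array was taken and kept apart, which gave 20 of the 56605 probes measured. Their signals were read in 6 skin tumours of male mice, 3 labelled P2ry6+/+ and 3 labelled P2ry6-/-, each on 1 one-colour array. P2ry6 encodes a receptor for uridine diphosphate, and the study set tumours with this gene against tumours without it. Both genotypes had the same tumour induction on shaved back skin: 195 nmol of the carcinogen DMBA (7,12-dimethylbenz[a]anthracene) was given once in 200 uL of acetone, and from the following week 16 nmol of the tumour promoter TPA was given 2 times a week until week 22. The labels count 12 treated mice of each genotype, give no strain or age, and do not say that the 3 tumours of a group came from separate mice, so every p-value measures only the spread between these samples. They also do not say which part of P2ry6 was removed.

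Melanocytes arise from the neural crest and make melanin inside a dedicated organelle, the melanosome. Tyrosinase (Tyr) carries out the first and rate-limiting oxidation of tyrosine, Dct and Tyrp1 act on later intermediates of the black-brown pigment, Pmel forms the fibrils on which pigment is laid down, and Mlana is a melanosomal membrane protein. The transcription factors Mitf and Sox10 drive these genes, Slc45a2 and Oca2 are melanosomal transport proteins, and Mc1r is the surface receptor for melanocyte-stimulating hormone. In the haired back skin of the mouse most melanocytes sit in hair follicles, where they pigment the growing hair.

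A sequence shared by the pigment enzymes is the E-box bound by Mitf. RefSeq (GRCm38.p6) gave 8 promoter windows for 6 of the 10 genes (Dct, Tyr, Tyrp1, Mc1r, Oca2 and 3 starts of Mitf), each running from 250 bases before to 50 bases after the transcription start. The letters TCATGTG, or CACATGA on the other strand, occurred in 4 of these 8 windows and in 3.77% of all 32851 windows of that length. The longer form TCATGTGCT, which contains TCATGTG, was in the windows of Dct, Tyr and Tyrp1 and in 0.408% of all windows. The shorter CATGTG, or CACATG on the other strand, was in 5 of the 8 windows, that of Oca2 among them, and in 14.2% of all windows. The windows of Oca2 and Mitf did not hold TCATGTG. The 250 bases before the start are printed 5′ to 3′ on the gene's strand for the 4 genes that held it. Capitals mark TCATGTG or CACATGA. The regions are chr7:87493513-87493762 (minus strand) for Tyr, chr4:80833963-80834212 (plus) for Tyrp1, chr14:118052247-118052496 (minus) for Dct and chr8:123406832-123407081 (plus) for Mc1r.
Tyr: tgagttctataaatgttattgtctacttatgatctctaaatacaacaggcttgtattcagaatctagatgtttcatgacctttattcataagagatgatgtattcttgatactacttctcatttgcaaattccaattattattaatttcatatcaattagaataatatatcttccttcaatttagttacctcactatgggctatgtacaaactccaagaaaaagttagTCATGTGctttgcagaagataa
Tyrp1: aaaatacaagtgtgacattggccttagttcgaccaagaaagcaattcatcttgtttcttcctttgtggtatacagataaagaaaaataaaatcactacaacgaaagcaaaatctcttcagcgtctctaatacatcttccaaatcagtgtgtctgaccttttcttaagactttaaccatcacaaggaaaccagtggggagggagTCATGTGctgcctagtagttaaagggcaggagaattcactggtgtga
Dct: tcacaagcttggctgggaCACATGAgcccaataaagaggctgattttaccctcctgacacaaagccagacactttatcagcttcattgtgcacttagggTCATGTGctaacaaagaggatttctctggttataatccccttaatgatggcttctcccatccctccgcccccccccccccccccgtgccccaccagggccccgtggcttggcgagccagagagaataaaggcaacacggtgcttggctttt
Mc1r: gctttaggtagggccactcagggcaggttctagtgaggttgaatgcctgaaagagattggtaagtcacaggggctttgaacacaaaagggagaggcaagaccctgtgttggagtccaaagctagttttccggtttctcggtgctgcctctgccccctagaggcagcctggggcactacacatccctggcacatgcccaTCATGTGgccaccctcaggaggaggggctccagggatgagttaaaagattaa
The match began 22 bases before the start in Tyr, 47 in Tyrp1 and 52 in Mc1r. Dct held 2 matches, and the one in the forward orientation began 151 bases before the start. A match in letters is a description of the sequence and not a measured binding site. Its part in the tumour signals was not tested.

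On each array 54.2% to 59.4% of the non-control spots were well above background, and the signal was taken as log2 of the processed intensity minus that array's 75th percentile, which puts that percentile at 0. Differences are labelled P2ry6-/- minus labelled P2ry6+/+. The epidermal keratins Krt5, Krt14 and Krt10 were well above background on all 6 arrays, so the arrays read epidermal tissue as labelled. The brighter P2ry6 probe read 0.38, 0.33 and -0.21 in the labelled P2ry6+/+ tumours and 0.57, 0.70 and 0.45 in the labelled P2ry6-/- tumours. Its difference was 0.41 (SE 0.20, limma adjusted p = 0.466). P2ry6 was thus not lower in the tumours labelled as lacking it, and a probe outside the deleted part checks nothing, so every direction follows the labels.

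Of the 10 pigmentation genes, 9 were well above background in at least 1 tumour, and Oca2 was not in any. At the level of probes, 15 of 20 were above background somewhere, 7 were above it on all 6 arrays, and 5 were above it on none (both Oca2 probes, 2 of 3 Tyr probes and 1 of 3 Tyrp1 probes). Tests were run for probes detected above background in all 3 tumours of either label, which left 10 probes of 6 genes: Dct, Tyr, Tyrp1, Pmel, Mlana and Mitf. None of these 10 probes passed a limma adjusted p of 0.05, where 0.145% of the 29721 probes tested did. Without adjustment 0 of the 10 had p under 0.05, against 12.7% of all probes tested; without labelled P2ry6-/- tumour 2 this count was 3 of 10 (2392 of 29927 among all probes), and with the first slide position number as a block 2 of 10 (3510 of 29721). The labelled groups overlapped at all 10 probes, while at 18.9% of the probes tested they did not. What separated the tumours at these genes was instead a difference within each label: labelled P2ry6+/+ tumour 2 and labelled P2ry6-/- tumour 2 were the 2 highest of the 6 at each of the 15 probes above background. Slc45a2 entered this count only through labelled P2ry6+/+ tumour 2 and was not well above background in labelled P2ry6-/- tumour 2. This pair was on top at 10 of 10 tested pigmentation probes, beside 5.76% of all probes tested. In bulk tissue, fewer melanocytes and less RNA per melanocyte cannot be told apart.

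**Figure D1:**
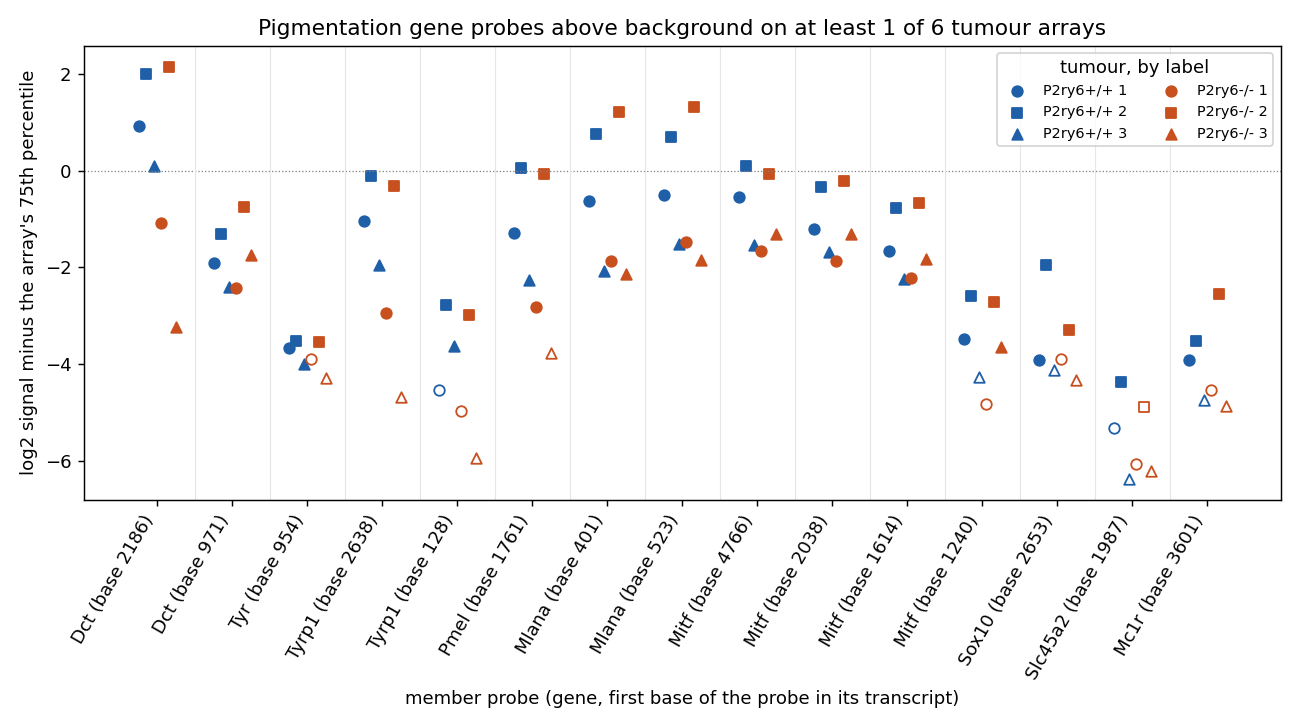
The 15 pigmentation probes that were well above background on at least 1 array are shown along the horizontal axis, named by gene and by the first base of the probe in its transcript; the vertical axis is the log2 signal minus the array's 75th percentile. Blue is labelled P2ry6+/+ and orange labelled P2ry6-/-, the shapes are replicates 1 (circle), 2 (square) and 3 (triangle), and open symbols were not well above background on that array; the squares of both colours lie on top at every probe.

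Dct, an enzyme of melanin synthesis, spread the most. The Dct probe that starts at base 2186 of its transcript (chr14:118412029-118412088, mm9, minus strand) read 0.92, 1.99 and 0.10 in labelled P2ry6+/+ tumours 1, 2 and 3 and -1.09, 2.15 and -3.24 in labelled P2ry6-/- tumours 1, 2 and 3. The highest and the lowest of the 6 were both labelled P2ry6-/-, tumours 2 and 3, and lay 5.39 log2 units or 41.9-fold apart. The group means were 1.00 ± 0.95 (SD, n = 3) and -0.73 ± 2.71 (SD, n = 3), a difference of -1.73 (SE 1.26, 95% interval -4.72 to 1.26, limma adjusted p = 0.62). The SD of the labelled P2ry6-/- tumours was thus larger than the difference itself.

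The other Dct probe, starting at base 971 (chr14:118442262-118442321, mm9), lies 30.2 kb away and gave a flatter picture. It read -1.91, -1.30 and -2.40 in the labelled P2ry6+/+ tumours and -2.42, -0.76 and -1.75 in the labelled P2ry6-/- tumours. The difference came to 0.23 (SE 0.46, 95% interval -0.86 to 1.31, limma adjusted p = 0.875). Both probes placed the same 2 tumours highest. They disagreed on labelled P2ry6-/- tumour 3, which was the lowest of 6 at base 2186 and the third of 6 at base 971, and the signs of their genotype differences were opposite. The range over the tumours at base 971 was 1.66 log2 units (3.17-fold). Its 60 bases, and those of the only Tyr probe above background, are printed 5′ to 3′ as the array file gives them. Of the enzyme probes above background, these had the smallest measured ranges, that of Tyr being limited by its dim signal.
Dct base 971: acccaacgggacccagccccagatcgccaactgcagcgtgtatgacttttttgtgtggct
Tyr base 954: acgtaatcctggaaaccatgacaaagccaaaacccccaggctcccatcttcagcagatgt

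Tyr was dim. The printed probe (chr7:94632414-94632473, mm9, minus strand) read -3.67, -3.52 and -3.99 in the labelled P2ry6+/+ tumours and -3.89, -3.54 and -4.28 in the labelled P2ry6-/- tumours, of which tumours 1 and 3 were not well above background. The difference was -0.17 (SE 0.24, 95% interval -0.74 to 0.39, limma adjusted p = 0.802), and the whole range over 6 tumours, those 2 included, was 0.76 log2 units. The median range of the probes tested was 0.75. With 2 Tyr values not well above background, its range is known only as at least 1.38-fold, and its full spread is not known. Its probes starting at bases 3687 and 2897 were never well above background. Tyr lies on the same chromosome as P2ry6, 13.5 Mb from the brighter P2ry6 probe.

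Tyrp1 followed the wide pattern of Dct base 2186. Its brighter probe (base 2638, chr4:80497524-80497583, mm9, plus strand) read -1.05, -0.12 and -1.95 in the labelled P2ry6+/+ tumours and -2.95, -0.31 and -4.68 in the labelled P2ry6-/- tumours, the last not well above background. Tumour 2 of each label stood at the top, labelled P2ry6-/- tumour 3 was at least 13.9-fold below the highest, its own value taken at the lowest signal well above background on its array, and the groups overlapped. The difference was -1.61 (SE 1.05, 95% interval -4.09 to 0.87, limma adjusted p = 0.573). A dimmer Tyrp1 probe, starting at base 128, read -4.53, -2.77 and -3.63 against -4.97, -2.99 and -5.94 and was above background only in labelled P2ry6+/+ tumours 2 and 3 and labelled P2ry6-/- tumour 2. It was not tested; the same pair was highest, and the order of the 3 tumours below background is not known.

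The melanosome matrix gene Pmel (chr10:128156029-128156986, mm9, plus strand) had 1 probe, which read -1.29, 0.06 and -2.27 in the labelled P2ry6+/+ tumours and -2.81, -0.07 and -3.77 in the labelled P2ry6-/- tumours. Labelled P2ry6-/- tumour 3 was not well above background and lay at least 14.2-fold below labelled P2ry6+/+ tumour 2. The difference was -1.05 (SE 0.99, 95% interval -3.39 to 1.30, limma adjusted p = 0.706), with overlapping groups.

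Mlana had 2 probes that start 122 bases apart in the transcript, and they gave nearly the same reading. The probe at base 523 (chr19:29782839-29782898, mm9) read -0.51, 0.70 and -1.52 in the labelled P2ry6+/+ tumours and -1.47, 1.32 and -1.84 in the labelled P2ry6-/- tumours. The difference came to -0.22 (SE 0.91, 95% interval -2.37 to 1.92, limma adjusted p = 0.943). The probe at base 401 (chr19:29782737-29782796) read -0.62, 0.76 and -2.07 against -1.87, 1.22 and -2.14, a difference of -0.29 (SE 1.03, 95% interval -2.74 to 2.16, limma adjusted p = 0.934). Both were above background on all 6 arrays, and at both labelled P2ry6-/- tumour 2 was the highest and labelled P2ry6-/- tumour 3 the lowest. The spread within a label was several times the difference between labels.

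Mitf, the transcription factor above these genes, varied less. Its brightest probe (base 4766, chr6:97971229-97971288, mm9, plus strand) read -0.54, 0.09 and -1.54 in the labelled P2ry6+/+ tumours and -1.66, -0.07 and -1.30 in the labelled P2ry6-/- tumours. The difference came to -0.35 (SE 0.53, 95% interval -1.60 to 0.90, limma adjusted p = 0.824). The probe at base 2038 read -1.20, -0.34 and -1.69 against -1.87, -0.22 and -1.32, and the probe at base 1614 read -1.67, -0.78 and -2.24 against -2.21, -0.67 and -1.82. Their differences were -0.06 (SE 0.49, limma adjusted p = 0.975) and 0.00 (SE 0.49, limma adjusted p = 0.998), and the interval of the latter ran from -1.17 to 1.17. Tumour 2 of each label was highest at all these probes, and the ranges over 6 tumours were 1.57 to 1.74 log2 units. Labelled P2ry6-/- tumour 3, the lowest tumour for Dct base 2186, Tyrp1, Pmel and Mlana, was above labelled P2ry6+/+ tumour 3 at all 3 tested Mitf probes. How far cells other than melanocytes contribute to the Mitf signal was not tested. A dimmer Mitf probe at base 1240 (chr6:97892054-97892113), above background in 2 tumours of each label, read -3.47, -2.60 and -4.26 against -4.83, -2.71 and -3.65 and was not tested.

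**Figure D2:**
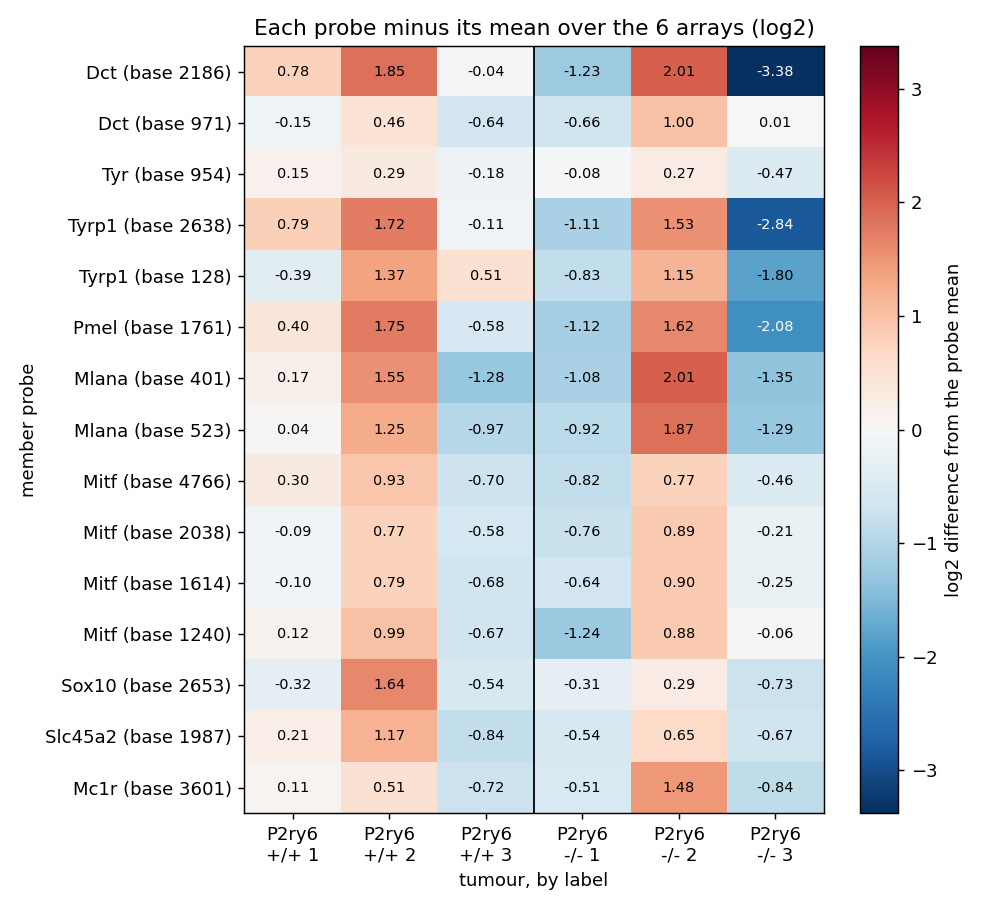
Each row is a pigmentation probe and each column a tumour; the colour and the printed number are the log2 signal minus the probe's mean over the 6 arrays, with labelled P2ry6+/+ left of the black line and labelled P2ry6-/- right of it. Columns P2ry6+/+ 2 and P2ry6-/- 2 are red throughout, and the darkest blue cells are Dct base 2186, Tyrp1 base 2638 and Pmel in P2ry6-/- 3, of which the Tyrp1 and Pmel values were not well above background.

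The remaining 3 measured genes were too dim to be tested. Sox10 (chr15:78985343-78985402, mm9) read -3.91, -1.95 and -4.13 in the labelled P2ry6+/+ tumours and -3.90, -3.30 and -4.32 in the labelled P2ry6-/- tumours, and was above background in labelled P2ry6+/+ tumours 1 and 2 and labelled P2ry6-/- tumour 2. Mc1r (chr8:125934583-125934642) was above background in the same 3 tumours and read -3.92, -3.52 and -4.75 against -4.54, -2.55 and -4.87. Slc45a2 (chr15:10957993-10958052) was above background only in labelled P2ry6+/+ tumour 2, at -4.36, with -4.88 in labelled P2ry6-/- tumour 2 and -5.32 to -6.37 in the others. For all 3 genes the tumours in which the probe was detected included labelled P2ry6+/+ tumour 2. Oca2 stayed between -4.75 and -6.21 on both of its probes, not well above background.

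Over the 6 tested genes, taking the brightest probe of each, 0 were higher and 6 lower in the labelled P2ry6-/- tumours, with a median difference of -0.70. Over the tested probes 9 were lower and 1 higher, and of all 29721 probes tested 47.1% were lower, with a median of 0.022. The 6 genes share the same 6 tumours and are highest in the same 2 of them, so this count is no set of independent readings. Leaving out 1 tumour moved the median to between -1.67 (without labelled P2ry6-/- tumour 2) and -0.24 (without labelled P2ry6-/- tumour 3). It was -0.25 without labelled P2ry6+/+ tumour 2, -1.19 without labelled P2ry6+/+ tumour 3 and -0.47 without labelled P2ry6-/- tumour 1.

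**Figure D3:**
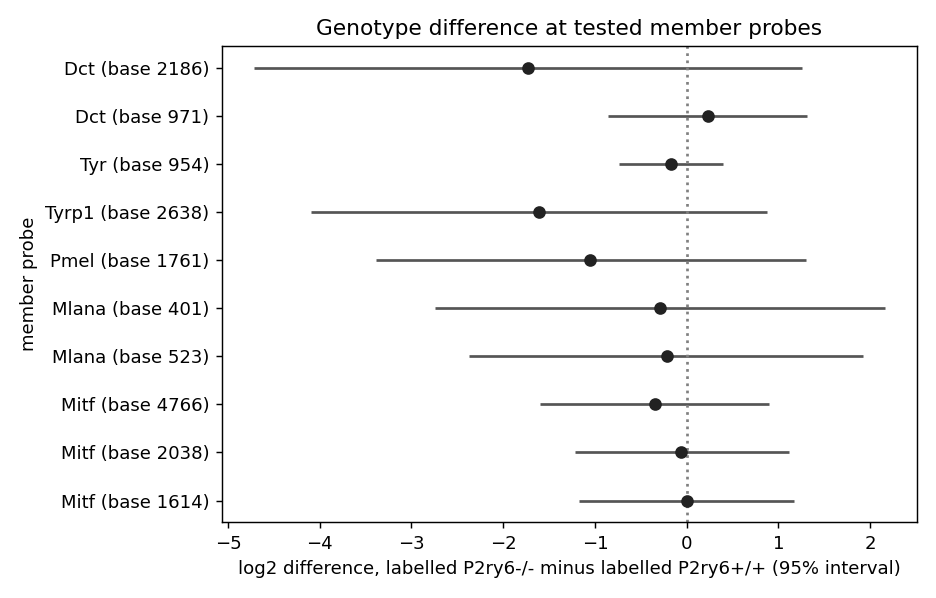
Points are the log2 differences, labelled P2ry6-/- minus labelled P2ry6+/+, at the 10 tested pigmentation probes, and bars their 95% intervals from limma. Every interval spans 0; the widest belongs to Dct base 2186 (-4.72 to 1.26) and the narrowest to Tyr (-0.74 to 0.39).

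The order of the tumours was the same feature at probe after probe. Labelled P2ry6+/+ tumour 2 was the highest at 8 of the 15 probes and labelled P2ry6-/- tumour 2 at the other 7. Labelled P2ry6-/- tumour 3 was the lowest at 9, labelled P2ry6-/- tumour 1 at 4 and labelled P2ry6+/+ tumour 3 at 2. The lowest tumour was well above background at 7 of the 15 probes; at the other 8 it was not. Both tumours of the high pair were well above background at 14 of 15, the exception being Slc45a2. Of all 35034 probes above background on at least 1 array, 6.25% had this pair as their 2 highest, and of the 29721 tested 5.76% did, beside 10 of 10 tested pigmentation probes. The pair was noticed in the values, so its count at the pigmentation genes is a description with no test. Under 3 other scalings (quantile normalization, median centring and the deposited value table), it again topped all 15 probes. With normexp background correction it topped 13 of 15, the exceptions being Tyr and Slc45a2, beside 4.98% of all probes. Of the 20 pigmentation probes, 15 and 14 were above background in the pair. The counts were 13 and 11 in labelled P2ry6+/+ tumours 1 and 3, and 9 and 8 in labelled P2ry6-/- tumours 1 and 3. Over all non-control spots the shares above background were, in the same sequence, 59.4% and 55.3%, 56.3% and 56.5%, and 54.2% and 56.1%. Detection is read from the same signals as the order of tumours, so these counts are no separate reading of it.

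Between the 2 high tumours themselves the genes differed little. Labelled P2ry6+/+ tumour 2 minus labelled P2ry6-/- tumour 2 was -0.16 for Dct base 2186, 0.20 for Tyrp1 base 2638, 0.12 for Pmel and 0.16 for Mitf base 4766. Mlana was higher in the labelled P2ry6-/- tumour, with differences of -0.46 and -0.62. The dim genes Sox10 (1.35) and Mc1r (-0.98) went in opposite directions.

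The 6 arrays shared 1 slide and 1 scan, and the array headers give each a position as a pair of numbers. The first number was 1 for both high tumours and for labelled P2ry6-/- tumour 1, which was low, and 2 for the other 3 tumours. With this number as a block, the median difference of the 6 genes was -1.27, and Dct base 2186 was at -2.60 (SE 0.95, limma adjusted p = 0.375), Tyrp1 base 2638 at -2.35 (SE 0.77, limma adjusted p = 0.339) and Pmel at -1.74 (SE 0.74, limma adjusted p = 0.431). Among the 3 arrays numbered 1 the difference was -1.46 for Dct base 2186, -1.51 for Tyrp1 and -1.50 for Pmel. Among the 3 arrays numbered 2 it was -3.74, -3.18 and -1.99 for these probes. Mitf base 1614 gave -0.66 and 0.13 in the same splits, so its sign turned between them. The second number was 1, 1 and 2 for the labelled P2ry6+/+ tumours and 2, 3 and 3 for the labelled P2ry6-/- tumours, so only labelled P2ry6+/+ tumour 3 and labelled P2ry6-/- tumour 1 shared a value. With this number as a block the difference rests on that pair: -1.19 for Dct base 2186 (SE 2.58, limma adjusted p = 0.891), -0.54 for Pmel (SE 1.86, limma adjusted p = 0.936) and -0.33 for the median of the 6 genes. The share of spots above background was 59.4% in labelled P2ry6+/+ tumour 2, the highest of 6, and 55.3% in labelled P2ry6-/- tumour 2, the second lowest; its part in the order of tumours was not tested.

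The wider machinery of the melanosome had the pair on top at a minority of its genes and probes. Of 26 genes listed for melanosome formation and transport, 25 were above background somewhere and 24 were tested; 14 were higher and 10 lower in the labelled P2ry6-/- tumours, 0 passed the threshold, and the median was 0.04. The mean level of the list lay between 0.73 and 0.83 in all 6 tumours, while that of the 9 pigmentation genes ran from -3.83 to -1.18. Of these 25 genes 2 (8%) had the pair as their highest tumours at the brightest probe. Counted by probes it was 7 of the 46 above background, where 6.25% of all probes above background on at least 1 array had the pair on top. The 2 genes were Slc24a5, a melanosomal ion exchanger, and Vps33a, a vesicle-sorting protein used by many cell types. Slc24a5 read -3.80, -2.32 and -3.84 against -4.50, -2.72 and -4.98, a difference of -0.75 (SE 0.66, limma adjusted p = 0.681). Trpm1, a melanocyte channel gene picked after its values were seen, was split between its probes. A dim one read -3.84, -1.95 and -5.19 against -6.12, -2.98 and -6.21, with the pair on top as at 2 other dim Trpm1 probes. The brightest read 0.39, 0.78 and 1.50 against 0.38, 1.28 and 1.74 and was highest in tumour 3 of each label. Gpr143, an ocular albinism receptor of melanosomes, was never well above background. The smallest p of the list belonged to Rab32, a GTPase that delivers melanosomal enzymes, at 1.73 ± 0.48 against 0.28 ± 0.45 (SD, n = 3 each; difference -1.45, limma adjusted p = 0.189). Rab32 was lowest in tumour 2 of each label, the reverse of the pigment genes. Myo5a, a motor that carries melanosomes (-0.97, limma adjusted p = 0.361), and Gpnmb, a melanosomal glycoprotein (-0.81, limma adjusted p = 0.402), came next and did not pass.

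Signals to melanocytes were likewise unresolved between the labels. Of 17 listed genes of signals and receptors, 16 had a probe, 13 were above background and 12 tested, 6 higher and 6 lower, with 0 passing. Kit, the receptor for stem cell factor on melanocytes and mast cells, read -1.40, -0.04 and -1.59 against -1.91, -0.65 and -2.03 at its brightest probe, a difference of -0.52 (SE 0.52, limma adjusted p = 0.722). All 3 Kit probes had the pair as their highest tumours, as did Edn1, which encodes endothelin. At the brightest probe these were 2 of the 13 genes above background, beside 6.25% of all probes above background on at least 1 array. The ligand of Kit, Kitl, had the smallest p of the list, -0.34 ± 0.44 against -1.23 ± 0.10 (SD, n = 3 each; limma adjusted p = 0.245), but its other probes differed by -0.19 and 0.01. Hgf (1.50, limma adjusted p = 0.246) and the endothelin receptor gene Ednrb (-0.82, limma adjusted p = 0.305) followed. Pomc, the precursor of the Mc1r ligand, Corin and Edn3 were never well above background.

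Among 14 listed transcription factors of melanocytes and neural crest, 13 were above background and 11 tested, 4 higher and 7 lower, with 0 passing and a median of -0.04. The 3 with the smallest p were Creb1 (at least 1.30-fold lower, since its labelled P2ry6-/- values were not well above background; limma adjusted p = 0.337), Tfap2a (0.48, limma adjusted p = 0.364) and Sox9 (-0.84, limma adjusted p = 0.384). None of these was the gene's brightest probe, at which the differences were -0.08 for Creb1, 0.02 for Tfap2a and -0.76 for Sox9. Foxd3, an early neural crest factor, was never well above background. Of the 13 genes above background, 1 (Zeb2, a repressor also used outside melanocytes) had the pair as its highest tumours at the brightest probe. Over all probes above background on at least 1 array the share was 6.25%.

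Markers of other cells moved to different degrees with the pigmentation genes. Hair follicle genes, of which 26 of 26 were above background, had a mean level of 1.25, 2.57 and -1.05 in the labelled P2ry6+/+ tumours and -1.97, -0.40 and -1.88 in the labelled P2ry6-/- tumours, so within each label tumour 2 was the highest here too. The inner root sheath keratin Krt71 read 5.19, 7.25 and 1.37 against -3.74, 0.39 and -2.51, and Krt25 3.28, 5.36 and -0.34 against -4.78, -0.97 and -3.82. Between the labels 3 hair genes were higher and 20 lower of 23 tested, with 0 passing. Krt85, a keratin of the hair shaft, read 3.07, 3.63 and 2.84 against 3.32, 3.38 and 3.64. In labelled P2ry6-/- tumour 2, Krt71 and Krt25 were thus well below labelled P2ry6+/+ tumour 2. The hair shaft keratins Krt31, Krt83 and Krt86 were lower there as well. They read 3.54, 2.99 and 2.96 in labelled P2ry6+/+ tumour 2 and -0.29, -1.17 and -0.79 in labelled P2ry6-/- tumour 2. Dct, Tyrp1 and Pmel were within 1 log2 unit between these 2 tumours. So was Krt85, which varied little (range 0.80) and was highest in labelled P2ry6-/- tumour 3. The 2 highest tumours were the pair at 4 of 26 hair genes (Krt79, Msx2, Hoxc13 and Shh) and at 4 of 9 mast cell genes (Mcpt4, Cpa3, Fcer1a and Cma1). They were the pair at 2 of 14 Schwann cell, 0 of 10 macrophage, 0 of 14 keratinocyte, 0 of 12 fat cell and 1 of 17 skeletal muscle genes. Over all probes above background on at least 1 array the share was 6.25%, so a count of 0 in lists this short is near that share. The mast cell mean was -0.75, -0.22 and -1.13 against -0.80, -0.03 and -0.14. Fat cell genes had a mean of 1.06, 1.71 and 0.54 against -1.55, -1.77 and -1.60, and of 11 tested 2 were higher and 9 lower, 3 past the threshold. Skeletal muscle genes had a mean of -1.0, 3.34 and 0.37 against -3.79, -3.94 and -3.68, and all 16 tested were lower, 2 past the threshold. Both lists were highest in labelled P2ry6+/+ tumour 2, one of the high pair. The labelled P2ry6-/- tumours lay close together in both lists. Genes such as Adipoq, Cfd, Myh4 and Myl1 were not well above background in any of them at the brightest probe. The order of these tumours in the 2 lists was thus not resolved. The part of hair follicle, mast cell, fat and muscle content in the pigment values was not tested.

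Schwann cells also use Sox10, and 14 of 15 listed Schwann genes were above background. Their mean was -0.37, -0.05 and -0.41 in the labelled P2ry6+/+ tumours and -0.71, -0.30 and -0.54 in the labelled P2ry6-/- tumours. S100b, a calcium-binding protein gene of Schwann cells and melanocytes, did not reach well above background in labelled P2ry6-/- tumours and was at least 2.92-fold lower there, with limma adjusted p = 0.128. Prx (-0.23, limma adjusted p = 0.711) did not pass. How far Schwann cells contribute to the dim Sox10 signal was not tested.

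**Figure D4:**
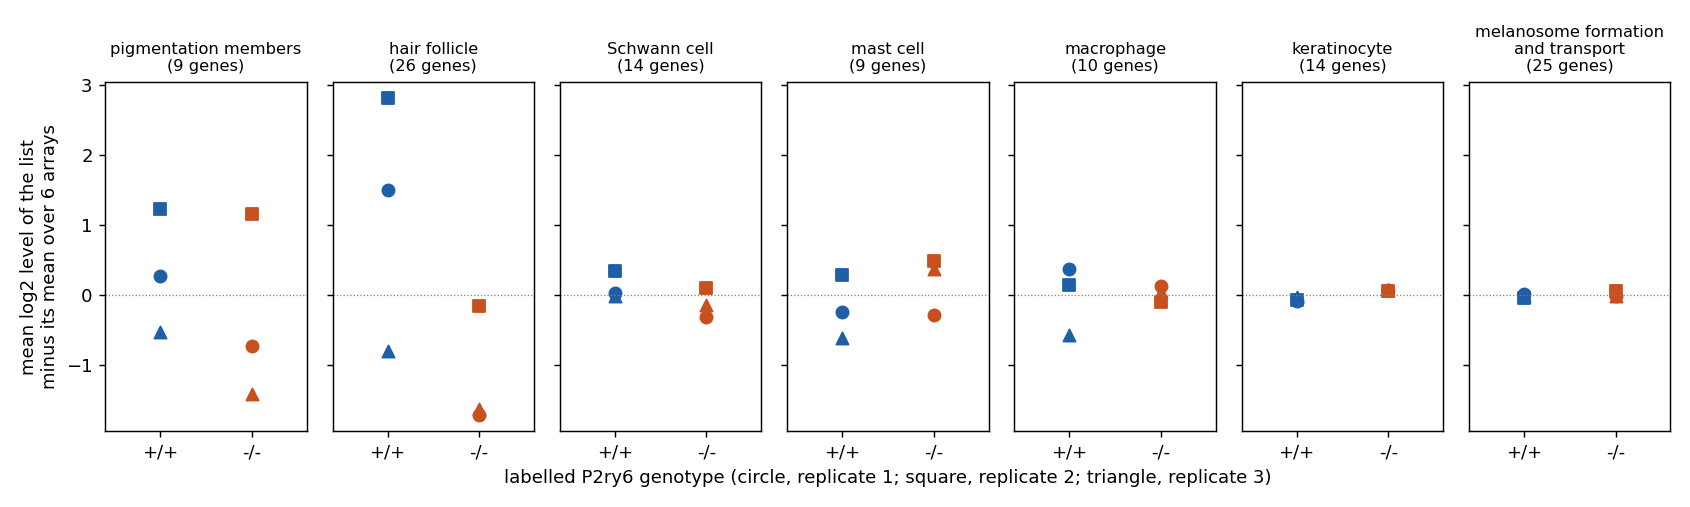
Each panel gives the mean log2 level of a gene list in the 6 tumours minus its mean over them, over the brightest probe of each gene above background somewhere; the horizontal axis is the labelled genotype and the shapes are replicates. The pigmentation genes put the squares of both labels on top, at about equal height, hair follicle genes put the labelled P2ry6+/+ tumours 1 and 2 above the rest, and the keratinocyte and melanosome machinery lists are nearly flat.

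The genes whose values ran closest to the pigmentation genes were ranked by the root-mean-square difference, over the 6 arrays, from the centred mean of Dct, Tyr, Tyrp1, Pmel and Mlana (brightest probe each). This mean read -1.12, -0.18 and -1.93 in the labelled P2ry6+/+ tumours and -2.44, -0.09 and -3.56 in the labelled P2ry6-/- tumours. The 5 closest named genes outside the list were Ackr4, an atypical chemokine receptor (0.268), Itih5 (0.322), the homeobox gene Hoxc13 (0.385), Pianp (0.410) and the skin chemokine gene Ccl27a (0.410), where the median over all probes tested was 1.29. Slc24a5, the melanosomal exchanger, came next at 0.430. Ackr4 read -3.03, -2.38 and -3.58 against -4.58, -2.54 and -5.92, and Ccl27a read 2.07, 2.94 and 1.54 against 0.90, 3.11 and 0.76. Of the pigmentation genes themselves, Pmel lay at 0.210, Tyrp1 at 0.420, Mlana base 523 at 0.447, Dct base 2186 at 0.676, Mitf base 4766 at 0.732 and Tyr at 0.977, all of them but Mitf being part of the mean. Ackr4 and Pianp were well above background in only 1 labelled P2ry6-/- tumour, and Itih5 and Hoxc13 in 2. The mean itself holds values of Tyr, Tyrp1 and Pmel in labelled P2ry6-/- tumour 3 that were not well above background. Such values enter the likeness. With 6 arrays this likeness is a description and was not tested.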

How the data were processed

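The authors' deposited array files give the brightness of each spot as a linear intensity, per the file headers. The processed intensity has the background taken off, while the mean and local background columns are raw. Per the submitters' processing notes, spots were read with Agilent Feature Extraction 10.7.1.1. A table of log2 values was also deposited; these correlated with each array's own processed signal at r = 0.99945 to 0.99997, all columns have a median of 4.969, and how they were made is not stated in the labels. Probe coordinates are on mm9, per the file headers.

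Spots flagged as outliers (68 to 184 of 62976 per array) were left out, 0 were saturated, and spots of a probe were averaged; 9 probes with no usable spot on an array were dropped from the fit. Values were log2 processed signal minus the 75th percentile of the array's non-control probes. Of 56605 probes 29721 were tested with limma 3.58.1 (lmFit and eBayes, two-sided, R 4.3.3, data.table package version 1.17.8), with Benjamini-Hochberg adjustment over all of them and a threshold of 0.05; 43 passed, 17 higher and 26 lower in the labelled P2ry6-/- tumours. Where no array of a group had a probe well above background, the fold is a bound: the bright group's mean against the dim group's mean of, per array, whichever is higher of the probe's own signal and the lowest signal of any probe well above background. Figures were drawn with matplotlib 3.10.9 and tables handled with pandas 2.3.3 in Python 3.11.15. Names were updated through RefSeq (GRCm38.p6). The fit was tested on simulated data.

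The pigmentation genes and the other gene lists were chosen with earlier results of these data known. All probes of the pigmentation genes, P2ry6, the 3 genes with the smallest p of each of the 3 pathway lists, the defining markers of the cell type lists and the 5 most alike genes are named by rule; the other genes named were chosen after their values were seen. Some markers that this rule selects are not reported here. Alternatives were normexp background correction (offset 50), quantile normalization, median centring, other filters on dim probes, 1 probe a gene, trend and robust eBayes, array weights, the deposited value table, the replicate number or either slide position number as a block, and each tumour left out in turn.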

Additional observations from a re-analysis of the deposited data

How the results depend on the processing

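No pigmentation probe passed the threshold under any of the 18 alternatives (lowest limma adjusted p 0.279), and the median difference of the tested genes stayed below 0 in all of them, at -0.33 with normexp, at -0.35 for the 3 genes above background on all 6 arrays and between -1.67 and -0.24 with a tumour left out. Of 173 values at single probes, 26 turned sign; their causes were not tested. With normexp these were Tyr (0.10) and Mitf (0.01 and 0.09), with array weights Mitf (0.09 and 0.11), and with the second slide position number as a block Dct base 971 (-0.02), Tyr (0.10), Mlana (0.20 and 0.05) and Mitf (0.03). Without labelled P2ry6+/+ tumour 2 they were Mlana (0.41 and 0.35) and Mitf (0.03, 0.31 and 0.39), and without its tumour 3 Dct base 971 (-0.04). Without labelled P2ry6-/- tumour 1 they were Mlana (0.18 at both probes) and Mitf (0.31 and 0.32), without tumour 2 Dct base 971 (-0.22), and without tumour 3 Tyr (0.02), Mlana (0.31 and 0.37) and Mitf (0.03 and 0.12). Over the single omissions the lowest and highest values were -3.17 and -0.47 for Dct base 2186, -0.22 and 0.62 for Dct base 971, -0.36 and 0.02 for Tyr, -2.78 and -0.59 for Tyrp1, -2.12 and -0.27 for Pmel, -1.37 and 0.41, and -1.21 and 0.37 for the Mlana probes, and -0.81 and 0.03, -0.51 and 0.31, and -0.45 and 0.39 for the Mitf probes. The count of all probes past the threshold, 43, became 15 with normexp, 22 with no filter, 147 with array weights, 6 when background was exceeded on all 6 arrays, and 16 (without labelled P2ry6-/- tumour 3) to 187 (without labelled P2ry6+/+ tumour 2) with a tumour left out. With the second position number as a block 0 passed by limma (3289 at an unadjusted p under 0.05). With the replicate number as a block 6 passed, again with 0 pigmentation probes. Without adjustment 3 of 10 pigmentation probes then had a limma p under 0.05, beside 4274 of 29721 among all probes. Deviations of same-numbered tumours correlated over probes at 0.096, 0.245 and 0.143, and each tumour correlated best with its own number, a hint from the data and not from the design; the numbers were not taken to pair the tumours. The second position number as a block and the recount of the 2 highest tumours under other scalings were chosen after seeing the data. Signal over background limits Sox10, Slc45a2, Mc1r, Oca2 and most Tyr probes.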
